A study of Mus musculus with 4 samples.

Results

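The contacts described here are the chromatin interactions of mouse macrophages in which at least 1 end fell on a promoter of a long non-coding RNA (lncRNA). The genome was divided into 5-kb bins. A bin was taken as a lncRNA promoter bin when it held an annotated transcription start site (TSS) of a lincRNA, antisense, processed transcript, sense intronic or bidirectional promoter lncRNA gene, and when no protein-coding TSS lay in the bin or within 2500 bp of it. Of 9588 autosomal bins with a lncRNA TSS, 2457 lay too close to a protein-coding start and were removed, which left 7131 lncRNA promoter bins of 7005 genes. These bins took part in 11940 of the 237102 listed interactions, or 5.04%.

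The interactions came from H3K4me3 HiChIP of bone marrow-derived macrophages (BMDMs) of C57BL/6J mice, grown for 7 days in medium with M-CSF. Samples were untreated (basal) in 2 replicates and treated with 20 ng/mL of mouse recombinant IL-4 for 24 h in another 2. HiChIP joins DNA ends that lie close together in the fixed nucleus and then enriches those bound to a chosen mark, here H3K4me3. The interactions analysed here come from 1 list, for which the authors pooled the reads of the 4 samples. Basal and IL-4-treated macrophages were therefore not compared, replicate error and depth per sample are unknown, and the tests below take the 19 autosomes as units, so that they measure the spread between chromosomes and not between cultures. Promoters of 10 of 10 macrophage marker genes had at least 1 interaction, with a median of 12. Of other markers, 2 of 5 T cell, 2 of 4 B cell, 3 of 4 neutrophil and 2 of 3 stromal promoters had one. Their medians were 0, 0.5, 1.5 and 1 interactions, and those at 0 were Cd3e, Cd3d, Cd8a, Cd79a, Pax5, Ly6g and Col1a1. Over all bins with a protein-coding TSS 57.4% had at least 1 interaction, so a listed promoter does not by itself tell the cell type.

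Long non-coding RNAs are transcripts that are processed like mRNA but carry no long open reading frame. Some act on neighbouring genes in cis, some host small RNAs in their introns, some work as nuclear scaffolds, and for many the DNA of the promoter, rather than the RNA, is the active element. H3K4me3 is laid down at the start sites of active genes, most strongly where the DNA is rich in CpG dinucleotides, so that a H3K4me3 HiChIP library is dominated by contacts of active promoters. The caller used by the authors tested pairs of bins with the mark in at least 1 of them, at distances of 10 to 1000 kb. A lncRNA promoter bin without the mark could thus be listed only with a marked partner, and a bin at 0 can be unmarked, below the threshold or joined only to nearer DNA.

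The sequences below show the range of promoters behind the results, from 250 bases before to 50 bases after the TSS, read from GRCm38 (mm10) on the strand of the gene, with each CpG in capitals. In all 4 cases the TSS bin overlapped no protein-coding gene. Dleu2 (chr14:61682324-61682623, minus strand), a host transcript of microRNAs, had the most interactions of all lncRNA genes, 197 over 2 bins. The bin of the printed window took part in 76 of them, and the window had 29 CpGs. Dubr (chr16:50732724-50733023, minus strand) had 67 interactions and 19 CpGs. Gm26660 (chr14:25379560-25379859, minus strand) had 65 interactions but only 3 CpGs. Snhg5 (chr9:88522880-88523179, minus strand), a host of small nucleolar RNAs, had 38 CpGs and no interaction.
Dleu2: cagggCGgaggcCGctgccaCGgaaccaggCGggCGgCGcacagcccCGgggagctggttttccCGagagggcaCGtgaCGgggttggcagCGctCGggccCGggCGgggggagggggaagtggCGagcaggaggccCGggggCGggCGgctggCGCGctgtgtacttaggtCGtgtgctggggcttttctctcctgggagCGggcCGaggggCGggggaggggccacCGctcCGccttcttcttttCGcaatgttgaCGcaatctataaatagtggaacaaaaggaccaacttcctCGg
Dubr: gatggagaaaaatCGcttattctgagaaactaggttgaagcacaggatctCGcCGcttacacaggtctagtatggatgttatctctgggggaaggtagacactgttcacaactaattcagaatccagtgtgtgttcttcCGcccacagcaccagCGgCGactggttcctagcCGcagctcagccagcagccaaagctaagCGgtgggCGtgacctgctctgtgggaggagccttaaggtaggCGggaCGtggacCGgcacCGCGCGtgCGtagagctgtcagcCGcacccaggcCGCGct
Gm26660: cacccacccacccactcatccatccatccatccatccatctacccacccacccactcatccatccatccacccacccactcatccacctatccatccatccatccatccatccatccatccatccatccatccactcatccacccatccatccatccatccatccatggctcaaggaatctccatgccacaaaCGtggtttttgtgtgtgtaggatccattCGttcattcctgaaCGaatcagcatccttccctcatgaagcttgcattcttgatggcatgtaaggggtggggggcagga
Snhg5: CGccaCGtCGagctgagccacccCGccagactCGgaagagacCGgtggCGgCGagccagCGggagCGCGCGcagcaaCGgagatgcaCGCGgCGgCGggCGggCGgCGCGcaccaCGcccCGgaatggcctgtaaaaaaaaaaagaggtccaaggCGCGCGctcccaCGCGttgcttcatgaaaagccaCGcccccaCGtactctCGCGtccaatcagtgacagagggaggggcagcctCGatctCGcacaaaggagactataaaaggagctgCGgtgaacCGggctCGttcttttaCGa
The CpG observed/expected ratio, which is the CpG count divided by that foreseen from the C and G content of the window, was 0.856 for Dleu2, 0.774 for Dubr, 0.203 for Gm26660 and 1.21 for Snhg5. CpG richness and contacts thus went together in Dleu2 and Dubr, and apart in Gm26660 and Snhg5.

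Of the 7131 lncRNA promoter bins, 2731 (38.3%, 95% Wilson interval 37.2 to 39.4) had at least 1 listed interaction and 4400 had none. The same share was 26.3% over all 492558 autosomal bins and 57.4% over the 23780 bins with a protein-coding TSS. Averaged over autosomes, 38.6% ± 6.35 (SD, n = 19) of lncRNA promoter bins and 57.8% ± 5.88 of coding promoter bins were listed. The lncRNA share was lower on 19 of 19 autosomes, by a mean of 19.3 percentage points (SD 6.23, two-sided sign-flip permutation test with 100000 resamples, p = 1e-05, the smallest it can give, adjusted over 7 tests p = 1.17e-05). On chromosome 11, the highest, 52.7% of lncRNA promoter bins were listed.

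By annotation, 1613 of 4607 lincRNA genes (35.0%), 795 of 1717 antisense genes (46.3%), 206 of 419 processed transcript genes (49.2%), 111 of 256 sense intronic genes (43.4%) and 2 of 6 bidirectional promoter lncRNA genes were listed. The lincRNA genes, which lie between coding genes, thus had the lowest share of the types with more than 6 genes. Of the bins, 4995 (70.0%) overlapped no protein-coding gene and 1731 of these (34.7%) were listed. Among the 1041 bins in introns of coding genes 422 (40.5%) were listed, and among the 1095 that touched a coding exon 578 (52.8%) were. Listed bins lay nearer to coding genes than unlisted ones, with a median distance to the nearest protein-coding TSS of 31.8 kb against 77.9 kb. Within 25 kb of such a TSS 1156 of 2144 bins (53.9%) were listed, and farther away 1575 of 4987 (31.6%).

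Most listed lncRNA promoters had few contacts and a small number had very many. The median listed bin had 2 interactions (quartiles 1 and 4, maximum 122), against 5 (2 and 15, maximum 204) for listed coding promoter bins. A single interaction was seen in 1131 of the listed lncRNA bins (41.4%) and in 20.6% of listed coding bins, whereas 20 or more were seen in 130 (4.76%) and 19.8%. The 100 lncRNA bins with the most contacts held 29.9% of all lncRNA interaction ends. On the log2 scale a listed lncRNA bin had 1.22 ± 0.16 (SD, n = 19 autosomes) and a listed coding bin 2.46 ± 0.08 interactions. This difference of -1.24 was negative on 19 of 19 autosomes (sign-flip permutation test, adjusted p = 1.17e-05). It was -0.56 at observed/expected ratios of at least 4 and -0.81 with only 1 interaction kept for each cluster of neighbouring bin pairs.

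**Figure D1:**
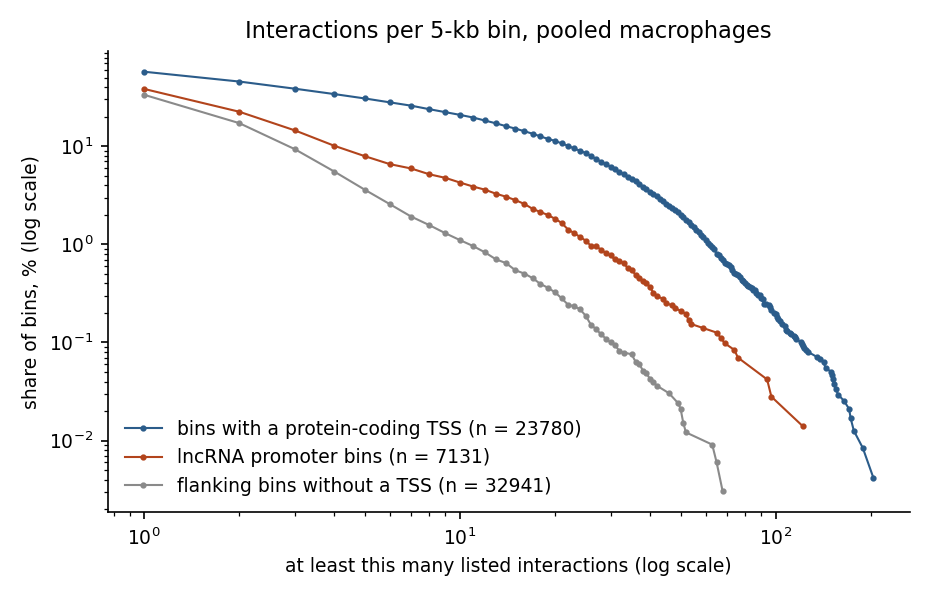
Share of bins (%, log scale) with at least a given number of listed interactions (log scale), for 7131 lncRNA promoter bins, 23780 coding promoter bins and 32941 TSS-free bins flanking the lncRNA bins. The lncRNA curve lies between the others, and 130 lncRNA bins reach 20 interactions.

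The lncRNA start sites were set against their own surroundings, namely the bins 15, 20 and 25 kb to each side that held no TSS. A lncRNA promoter bin had 1.72 ± 0.444 interactions on average, bins at 0 included, and its flanking bins had 0.959 ± 0.183 (SD, n = 19 autosomes). The excess of 0.764 ± 0.348 interactions per bin was positive on 19 of 19 autosomes (sign-flip permutation test, adjusted p = 1.17e-05). It was smallest on chromosome 18 in the plot by autosome. The excess was 0.348 under a false discovery rate below 1e-06, 0.262 at ratios of at least 4 and 0.185 with 1 interaction per cluster. The direction was the same for lincRNA genes alone, with an excess of 0.827.

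**Figure D2:**
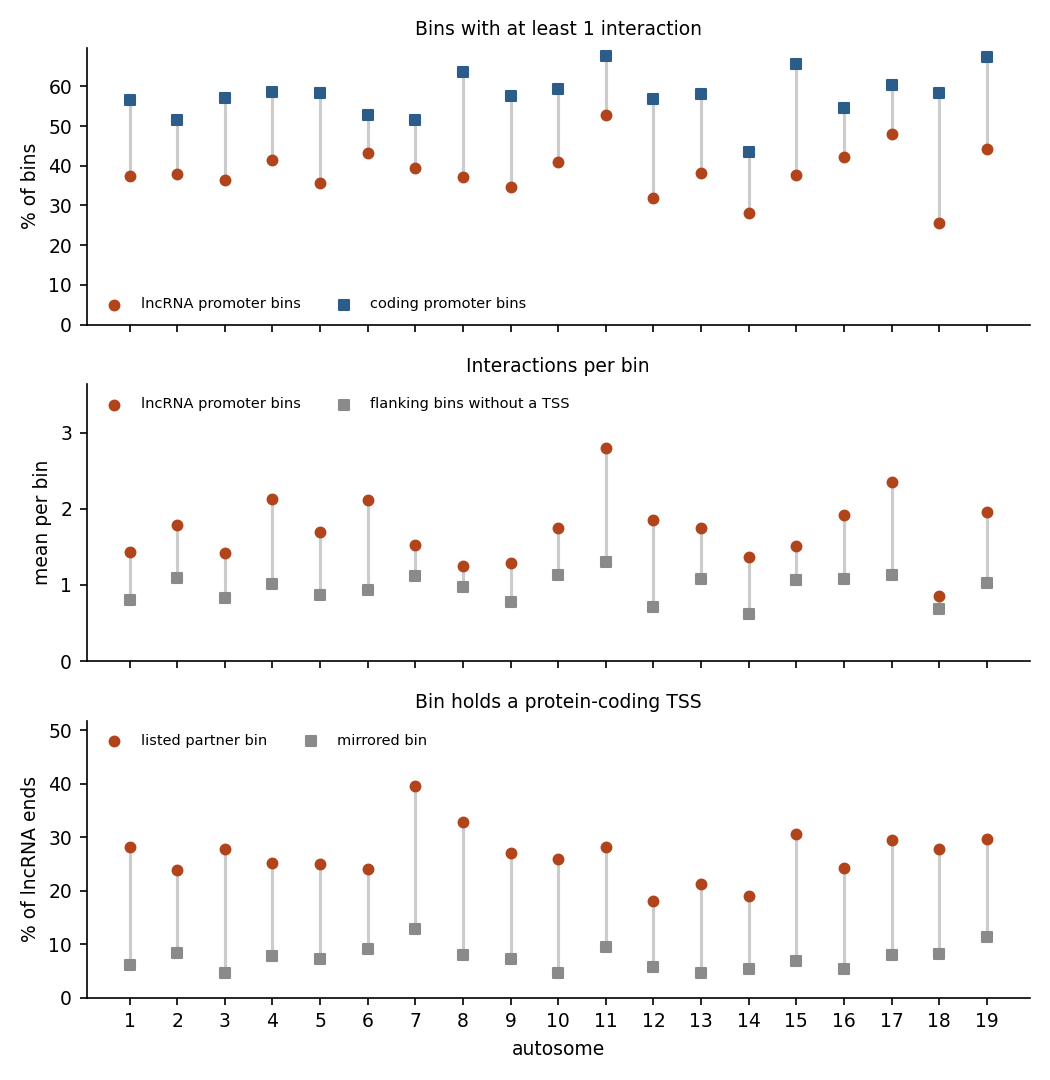
Per autosome, the share of bins listed for lncRNA and coding promoters (top, %), the mean number of interactions of lncRNA promoter bins and their TSS-free flanks (middle), and the share of lncRNA interaction ends whose partner bin or mirrored bin holds a protein-coding TSS (bottom, %). On 19 of 19 autosomes the lncRNA point is below the coding point in the top panel and above the grey square in the other panels.

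Contacts of lncRNA promoters spanned a median of 190 kb (quartiles 90 and 360 kb), the same median as contacts of coding promoters. For tests of distance and ratio, the 3217 contacts between a lncRNA and a coding promoter were left out of both sets. The log2 of the median distance in kb was 7.59 ± 0.28 for lncRNA and 7.59 ± 0.08 for coding contacts over autosomes, and the sign-flip permutation test gave an adjusted p of 0.96, with lncRNA distances longer on 9 autosomes and shorter on 8. Restricted to a false discovery rate under 1e-06, lncRNA distances were longer by 0.28 on the log2 scale (sign-flip permutation test, adjusted p = 0.0252). The middle lncRNA interaction rested on 24 observed paired reads (range 6 to 1156) and lay 3.26 times above the expected count of the authors' model (maximum 25.7).

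With those 3217 contacts left out, lncRNA contacts stood farther above expected than coding contacts on average over distance classes, but not in the shortest one. Median observed/expected ratios were 2.40 against 2.46 at 10 to 50 kb, 3.07 against 2.79 at 100 to 200 kb and 4.95 against 4.02 at 500 to 1000 kb. The mean log2 ratio over distance classes was 1.77 ± 0.03 for lncRNA and 1.66 ± 0.01 for coding contacts (SD, n = 19 autosomes), a difference of 0.11 that was positive on 19 of 19 autosomes (sign-flip permutation test, adjusted p = 1.17e-05). Over all distances, the contacts left out had a median ratio of 3.03, below the 3.33 to 3.41 of lncRNA ends at exon, intron and intergenic bins. The expected counts differed as well, with medians of 2.32 for lncRNA and 3.80 for coding contacts at 500 to 1000 kb and 33.6 against 67.3 at 10 to 50 kb. A low expected count needs a higher ratio to pass the caller's threshold, and the part of this in the difference was not tested. Among interactions with a ratio of at least 4 the difference was 0.0042 (sign-flip permutation test, adjusted p = 0.8).

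**Figure D3:**
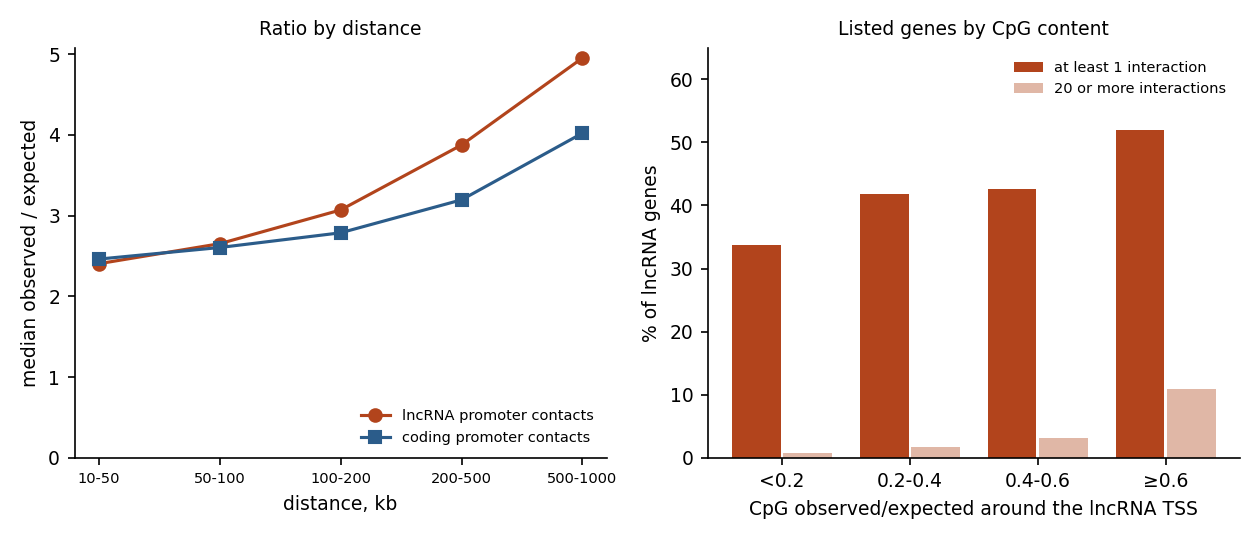
Left, median observed/expected ratio of lncRNA and coding promoter contacts, those joining both kinds left out, in 5 distance classes (kb); the lines part from 100 kb on and reach 4.95 and 4.02. Right, share of lncRNA genes (%) with at least 1 and with 20 or more interactions in 4 classes of CpG observed/expected ratio around the TSS, from 33.8% to 51.9% and from 0.812% to 11% between the lowest and the highest class.

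A protein-coding promoter was at the other end of 3217 of the 12166 lncRNA interaction ends (26.4%). For comparison, the bin mirrored to the other side of the lncRNA promoter at the same distance held a coding TSS in 7.37%, and the partners of coding promoter ends held one in 13.7%. Over autosomes the shares were 26.7% ± 4.90 for partners and 7.43% ± 2.25 for mirrored bins (SD, n = 19). The difference of 19.3 percentage points (SD 3.83) was positive on 19 of 19 autosomes (sign-flip permutation test, adjusted p = 1.17e-05). Marked bins alone could be partners of unmarked lncRNA bins, and the part of that rule in the difference was not tested, since no peak list was used here. Of the remaining ends, 32.3% reached intergenic bins, 19% introns and 18.5% exons of coding genes, and 3.72% another lncRNA promoter bin.

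In all, 2003 listed lncRNA bins (73.3%) reached at least 1 coding promoter, 892 (32.7%) reached nothing else, and 2285 coding promoter bins (9.61%) were reached. The 1131 listed lncRNA bins with a single interaction can have only 1 kind of partner. These shares were not computed for other listed bins, so they do not show a preference. The closest coding promoter bin at 10 kb or more was a listed partner for 507 bins, which is 25.3% of those with a coding partner and 18.6% of all listed lncRNA bins. Of the 3217 contacts with a coding promoter, 875 (27.2%) passed over no other coding promoter bin, and the median contact passed over 2. Antisense lncRNAs, which overlap a coding gene on the other strand, reached the promoter of that host in 141 of 702 listed genes (20.1%) where it lay at least 10 kb away, and sense intronic lncRNAs did so in 26 of 102 (25.5%). A share for other coding promoters at the same distances was not computed. The 18.6% above, for the closest coding promoter, is not far from these values. Partners lay downstream of the lncRNA in 51.0% of 11555 ends, with a mean over autosomes of 50.2% ± 5.99 (SD, n = 19).

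Among coding promoters, the one shared by most lncRNA bins was that of Zfp703, a transcriptional corepressor gene, with 16 lncRNA bins among its 152 interactions. Jarid2, which encodes a cofactor of Polycomb repressive complex 2, was reached by 15 lncRNA bins, and the shared promoter bin of Galnt4 and Poc1b by 10. Jun, an AP-1 subunit, was reached by 8. The promoter bins of Prdm1, Cdyl, Rreb1, Runx1, Atp6v0e and Klf3 were each reached by 7. Several of these genes encode transcription factors of macrophages or their precursors, and whether such genes were over-represented was not tested. All had many contacts in total, from 25 at Rreb1 to 189 at Jun, against a median of 5 for listed coding bins. A ranking by the number of lncRNA bins favours such promoters. Over all coding promoter ends, 2.02% had a lncRNA promoter bin as partner.

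The Dleu2 gene (chr14:61602839-61682373, minus strand) stood first with 197 interactions. Its TSSs fell in 2 bins, with 122 interactions at chr14:61645001-61650000, which also holds the TSS of Gm27017, and 76 at chr14:61680001-61685000, the contact between them included in both. That contact had 680 observed against 242 expected reads (ratio 2.80, 35 kb). In 153 of the 197 interactions the partner bin was intergenic, in 4 it held a coding TSS, and in 158 it lay upstream. Partner bins reached from both Dleu2 bins are counted for each. The highest ratio was 17.6, at an intergenic bin 600 kb upstream (chr14:62245001-62250000, 82 reads). The interactions belonged to 23 clusters of neighbouring bin pairs.

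Gm27017 followed with 122 interactions, all in the bin that it shares with Dleu2. Next were Gm37170 with 97 interactions, Gm26839 with 94 and G730013B05Rik with 76. Gm37170 (chr3:52198248-52200489, plus strand) had 92 of its 97 partners upstream and 56 in introns of coding genes. Its contact with the most reads was with an exon bin of Maml3, a Notch coactivator gene, 95 kb away (295 reads, ratio 4.56). A bin with an annotated Maml3 TSS was reached at 400 kb with 27 reads and a ratio of 6.52. The nearest listed partners on both sides of that TSS bin were intronic. The exon bin lay between intronic and intergenic partners, at an edge of the gene. Which of these bins lies nearer to the main Maml3 start was not assessed. In contrast, Gm26839 (chr12:99563796-99620038, plus strand) had 44 partners upstream and 50 downstream, 53 of them intronic, and its highest ratio of 7.18 was in an intron of Efcab11 at 230 kb. It also met the lncRNA 1700064M15Rik, 65 kb downstream, with 267 reads. The interactions of Gm37170 belonged to 7 clusters and those of Gm26839 to 11.

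On chromosome 16, 2 lncRNA promoters reached the same coding gene. G730013B05Rik (chr16:50526245-50559459, plus strand) contacted the promoter of Bbx, an HMG-box transcription factor gene, at 95 kb with 367 reads and a ratio of 4.54. Dubr (chr16:50719294-50732773, minus strand), known from muscle differentiation, contacted the same Bbx promoter bin at 300 kb with 116 reads and a ratio of 3.81. All 67 partners of Dubr lay downstream of it, which is toward Bbx. The promoter bins of the lncRNAs also contacted each other over 205 kb with 203 reads and a ratio of 7.04. The Dubr bin was not the peak there. From G730013B05Rik, the adjacent intergenic bin at 210 kb had 208 reads and a ratio of 7.39, and an intergenic bin at 195 kb a ratio of 11.1. These contacts thus joined 3 promoter bins pairwise, the one between the lncRNAs within a run of neighbouring contacts.

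Other genes of the top group were Zswim6 with 74 interactions, Gm26656 and Gm44066 with 69 in a bin that they share, and Gm26660 with 65. Zswim6 is classed as a processed transcript in the annotation used, but RefSeq places a curated mRNA start there. The bin of Gm26656 and Gm44066 (chr6:128840001-128845000) lies in the natural killer receptor gene region. It reached the Klrb1b promoter at 15 kb with 278 reads, the promoter of Cd69, a leukocyte activation marker, at 435 kb with 40 reads, and an intergenic bin at 410 kb with a ratio of 18.1. Gm26660, whose CpG-poor promoter is printed above, met the promoter of Zmiz1, a coregulator gene, at 80 kb with 305 reads and a ratio of 6.07.

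**Figure D4:**
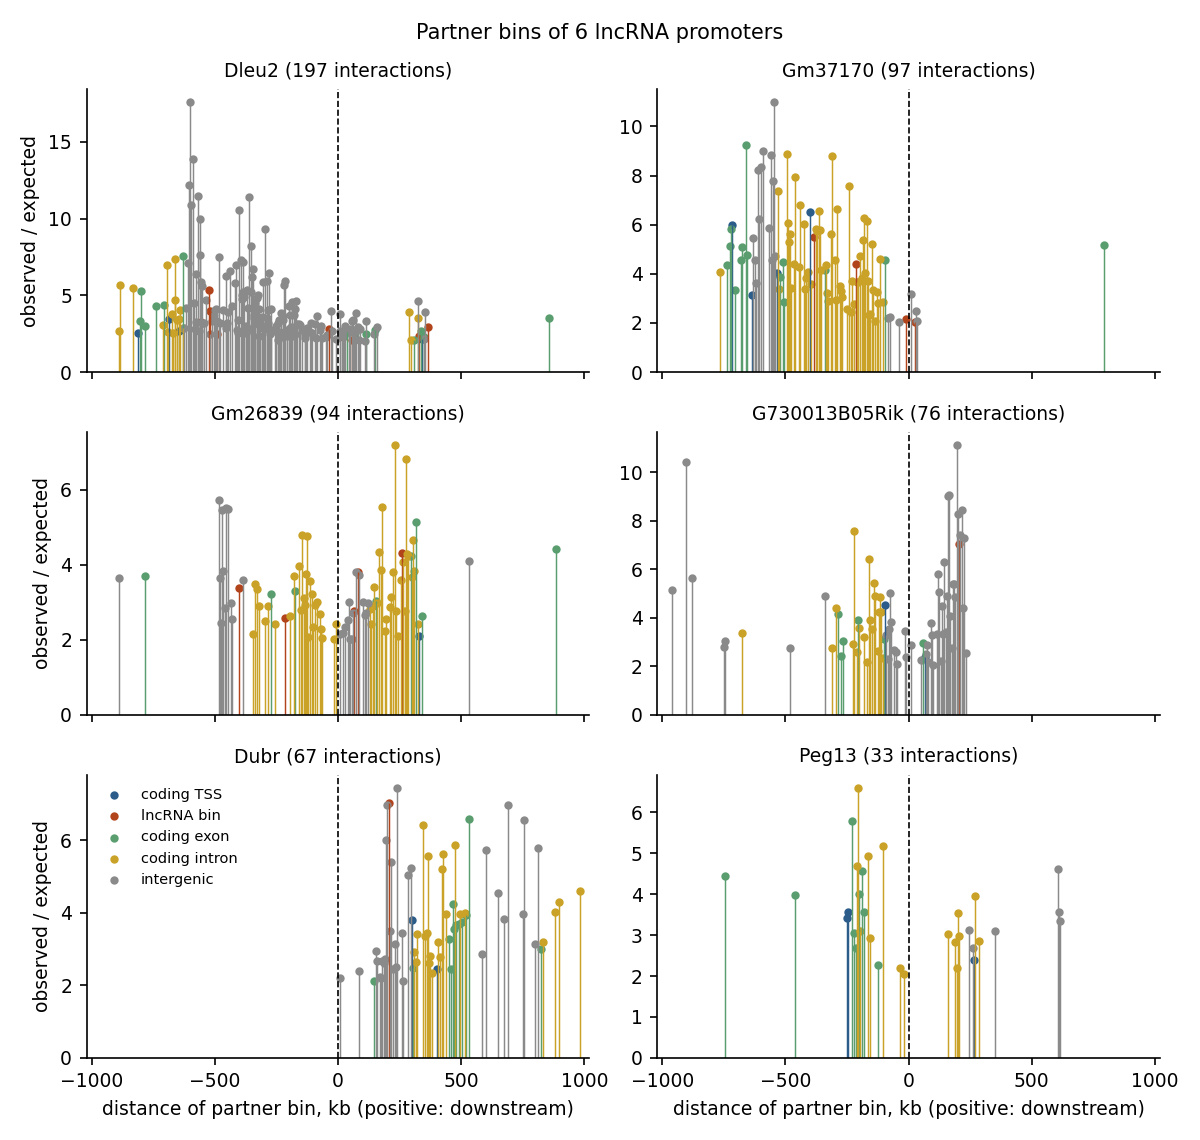
Observed/expected ratio of each listed interaction of 6 lncRNA promoters against the distance of the partner bin from the lncRNA bin (kb, positive downstream of the lncRNA), coloured by what the partner bin holds. Partners of Dubr lie downstream only, those of Gm37170 mostly upstream (92 of 97), and those of Gm26839 and Peg13 on both sides.

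By observed count, the strongest lncRNA interaction joined the Lockd promoter bin (chr6:134925001-134930000) to an intergenic bin 10 kb upstream with 1156 reads, against 521 expected. Lockd is transcribed beside Cdkn1b, a cell cycle inhibitor gene, and its bin lay 4.49 kb from the nearest coding TSS. If upstream, a TSS at that distance would fall between the 2 joined bins and close to the intergenic one. The side was not assessed. Among genes named below, the bins of Mir22hg, D030034A15Rik and Dlx1as lay 3.08, 6.21 and 6.75 kb from a coding TSS. The part of such a neighbouring promoter in these contacts was not tested. The next were Gm46404 in a histone gene region with 925 reads, the pair of lncRNA bins described below with 920, Gm38293 with 876, and AU022793 with 851 reads to the Lrp12 promoter. These 5 spanned 10 or 20 kb, and their ratios ranged from 2.22 to 6.05.

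By ratio, the strongest joined Gm12865 (chr4:118984058-118997198, minus strand) to the promoter of Zfp691, a zinc finger gene 175 kb away, with 230 observed against 8.94 expected reads (ratio 25.7, false discovery rate 2.63e-228). The adjacent lncRNA Gm12862 reached the same promoter with 363 reads and a ratio of 19.4, and both also reached the promoter of the glucose transporter gene Slc2a1, with 73 and 131 reads. BC002059 met an intergenic bin at 55 kb with a ratio of 21.2, on 32 reads. Gm11998 had a ratio of 19.8 with an intron of Fignl1, and its contact with the most reads, 125, was with the promoter of Ikzf1, which encodes the haematopoietic factor Ikaros, at 130 kb. D030034A15Rik reached an exon bin of the Src family kinase gene Fyn at 350 kb with 103 reads and a ratio of 19.5. Gm43837 had a ratio of 19.4 with an intergenic bin at 480 kb and of 15 with the promoter of Klf3 at 430 kb. Chosen after its values were seen, 2310081O03Rik (chr4:56220617-56224521, minus strand) met the promoter of Klf4, a factor of alternative macrophage activation, over 690 kb with 101 reads against 5.30 expected (ratio 19.1). Its 39 partners were all downstream and 37 of them were intergenic, and no other coding promoter was among them. The 5 highest ratios spanned 55 to 480 kb. For lncRNA contacts without a coding promoter, the median count fell from 83 at 10 to 50 kb to 12 at 500 to 1000 kb. The median ratio rose from 2.40 to 4.95, so a ranking by count favours near pairs and a ranking by ratio far ones.

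In 226 interactions both bins were lncRNA promoters, and 220 of these joined different genes, at a median distance of 140 kb. The highest count, 920 reads with a ratio of 6.05 at 10 kb, joined the bin shared by 4833417C18Rik and Gm11527 (chr11:95855001-95860000) to that of Gm11534. The 2 bins of Dleu2 came next with 680 reads, followed by 1810026B05Rik and Gm44734 with 322 reads at 50 kb. These 3 pairs spanned 10 to 50 kb, and a ranking by count favours near pairs.

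Antisense lncRNAs with many reads to the promoter of their host included Gm17034, which met the promoter of Hk2, encoding the glycolytic enzyme hexokinase, at 10 kb with 798 reads and a ratio of 2.80. Gm15441, antisense to the thioredoxin inhibitor gene Txnip, met the Txnip promoter at 10 kb with 687 reads and a ratio of 4.44. Gm27201 met the promoter of its host Fli1, an Ets factor gene, at 35 kb with 405 reads and a ratio of 4.66. These genes were chosen after their values were seen, except Gm15441.

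Known lncRNAs were also described by group. Over all 7005 lncRNA genes with a promoter bin of their own, the median was 0 interactions and 38.9% were listed. Of small nucleolar RNA hosts, which are transcribed strongly in growing cells, 7 of 8 were listed with a median of 7, namely all but Snhg5. Snhg20 had 35 interactions and reached the promoter of Sec14l1 at 40 kb with 257 reads. Epb41l4aos had 33 interactions, 32 of them upstream, with the Stard4 promoter at 580 kb (28 reads), and Snhg8 had 15. A further 7 hosts were not assessed because they lie within 2500 bp of a coding TSS.

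Of widely expressed lncRNAs 7 of 9 were listed, with a median of 8, and those at 0 were Pvt1 and Trp53cor1. Behind Dubr came Lockd with 37 interactions and Lncpint with 25, whose promoter bins reached the Mkln1 promoter at 180 kb with 98 reads. Malat1 and Neat1, neighbours that form nuclear speckle and paraspeckle RNAs, had 23 and 8 interactions. Both reached the shared promoter bin of Frmd8 and Slc25a45, Neat1 at 30 kb with 275 reads and Malat1 at 80 kb with 208 reads.

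Of microRNA hosts 7 of 11 were listed, with a median of 1. Dleu2 led with 197, followed by Mir22hg with 29 and Mir99ahg with 18. Mir155hg, the host of a microRNA induced by inflammatory signals, had 1 interaction, with an intergenic bin 120 kb upstream (108 reads, ratio 4.59). Hosts of neural microRNAs, such as Mir124a-1hg, Mir124-2hg and Mir9-3hg, had none.

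Of immune lncRNAs 6 of 7 were listed, with a median of 2. Gm14005, also called Morrbid, is known as a regulator of the life span of myeloid cells through the apoptosis gene Bcl2l11, and had 30 interactions. One of them joined it to the Bcl2l11 promoter at 300 kb with 54 reads and a ratio of 3.97. Dnmt3aos, antisense to the DNA methyltransferase gene Dnmt3a, had 18 interactions, with 247 reads to an exon bin of that gene at 10 kb. Gm15441 had 5. Ptgs2os2, or lincRNA-Cox2, had 1 interaction, with the promoter of the phospholipase gene Pla2g4a at 200 kb (28 reads, ratio 4.22), and none with its namesake Ptgs2. Ifngas1, a lncRNA of T cells and natural killer cells, had none.

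Of imprinted lncRNAs, which are made from 1 parental allele, 3 of 8 were listed. Peg13 had 33 interactions, with the promoter of Trappc9, in whose intron it lies, at 250 kb (68 reads) and with the promoter of its neighbour Kcnk9 at 265 kb (21 reads). Kcnq1ot1, which silences its cluster in cis, had 17 and reached the promoters of the imprinted genes Cdkn1c at 165 kb (60 reads) and Slc22a18 at 175 kb (44 reads). Airn had 13, the strongest with an intron of Igf2r (296 reads at 15 kb). H19, Meg3, Rian, Mirg and Snhg14 had none. Reads were not separated by allele.

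Of developmental lncRNAs 5 of 14 were listed, a share near the 38.9% over all lncRNA genes, and 9 were at 0, among them Fendrr and Sox2ot. Dlx1as had 11 interactions, including the Hat1 promoter, and Bvht had 6. Halr1 at the Hoxa cluster had 3, of which 1 reached the Hoxa4 promoter at 90 kb with 46 reads. The highest value in this group, 11, was below the third highest of the small nucleolar RNA hosts, 15. A further 13 developmental lncRNAs were not assessed because they lie within 2500 bp of a coding TSS. The same held for 4 immune and 2 imprinted lncRNAs, 1 microRNA host and 1 widely expressed lncRNA.

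**Figure D5:**
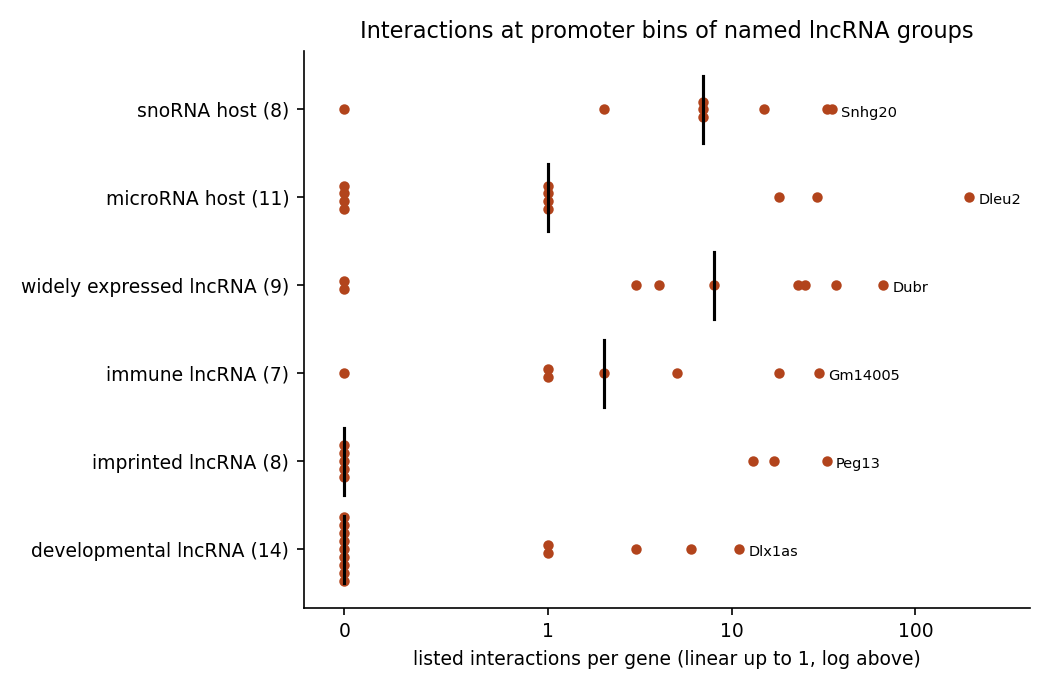
Listed interactions per gene (linear to 1, log above) for 6 groups of known lncRNAs, with 1 point per gene, the number of genes in brackets, the median as a vertical line and the leading gene named. Medians are 7, 1, 8, 2, 0 and 0 from top to bottom.

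Promoters of listed lncRNA genes were slightly richer in CpG than those at 0. The CpG observed/expected ratio of the 300-base window averaged 0.289 for the 2727 listed genes and 0.241 for the 4278 genes at 0. Over autosomes the means were 0.291 ± 0.0188 and 0.241 ± 0.0126 (SD, n = 19), a difference of 0.0493 ± 0.0214 that was positive on 19 of 19 autosomes (sign-flip permutation test, adjusted p = 1.17e-05). Protein-coding promoters were far richer, at 0.644 when listed and 0.358 at 0. The listed share was 33.8% of lncRNA genes with a ratio below 0.2 and 51.9% of those at 0.6 or more.

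Mean CpG content was higher still in the most contacted lncRNA genes. The 146 genes with 20 or more interactions had a mean CpG ratio of 0.479, and 33.6% of them were at 0.6 or more, against 5.03% of genes at 0. Such genes were 0.812% of those below 0.2 and 11% of those at 0.6 or more. Consensus motifs were counted on both strands of the same windows. A GAGGAAGT motif of the macrophage factor PU.1 was in 3.78% of listed, 2.92% of unlisted and 5.48% of the 146 windows. Among coding promoters the order was the other way, with 3.10% of listed ones and 3.53% of those at 0. The AP-1 motif TGANTCA was in 10.9%, 10.5% and 7.53%, the C/EBP motif TTGCNNAA in 13.1%, 12.7% and 13.0%, and the STAT6 motif TTCNNNNGAA in 8.18%, 9.16% and 6.85%. The CpG-containing EGR motif GCGNGGGCG was in 1.06%, 0.304% and 4.11%, against 9.16% of listed coding promoters and 5.13% of those at 0. The PU.1 and EGR shares of the 146 windows rest on few windows. A match is a run of letters and not a bound site.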

How the data were processed

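H3K4me3 HiChIP was measured in 2 basal and 2 IL-4-treated samples, grouped by title. The authors ran the caller MAPS with bins of 5000 bp on each sample, on each condition and on the reads of the 4 samples together, and the list used here is the last of these. Its version is not given in the sources used here. The submitters' notes name Bowtie2, bedtools and mm10. MAPS models counts from distance, GC content, mappability, restriction sites and enrichment. The observed count and the expected count (a model signal) were used as deposited, as were the authors' false discovery rates, which are adjusted p-values below 0.01. The authors' deposited cluster labels served for 1 alternative. Cluster size, a score set by the authors as the number of bin pairs in a cluster, and the authors' summed −log10 p were not used. Observed/expected was computed from the deposited counts. Depth per sample is unknown. The Wilson interval covers binomial counting error only, with bins taken as independent, and not the spread between chromosomes or cultures.

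Positions are 1-based mm10, within GRCm38 chromosome lengths, and gene models are GENCODE M21 basic. Distances are between bin starts. Tests were two-sided sign-flip permutation tests over 19 autosomes with 100000 resamples, adjusted by Benjamini-Hochberg over 7, and were tested on simulated data. The members, the 6 gene lists (98 entries) and the tests were chosen with earlier results of these data known. Genes were named by rule: the 10 most contacted lncRNA genes, up to 3 per list, the top 5 interactions by count and by ratio, the top 3 between lncRNA bins, and the coding genes reached by these. Others are marked as chosen after their values were seen, or are members of the lists given to show which were at 0 or low. Alternatives comprised stricter false discovery rate, ratio and count, 1 interaction per cluster, a wider gap to coding TSSs, lincRNA genes only and leaving out the autosome with most interactions. Absence of RefSeq mRNA starts and a gap of 25 kb were added after the data were seen. Python 3.11.15, numpy 2.4.6, pandas 2.3.3, scipy 1.17.1 and matplotlib 3.10.9 were used.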

Additional observations from a re-analysis of the deposited data

How the results depend on the processing

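No paired analysis was possible because the deposited list pools the 4 samples, and for the same reason no replicate could be left out. Under the 9 alternatives run, the listed share of lncRNA minus coding promoter bins ranged from -25.9 to -16.2 percentage points, the excess over flanking bins from 0.185 to 0.827 interactions, the log2 difference in interactions per listed bin from -1.31 to -0.56, the excess of coding partners from 15 to 25.9 percentage points and the CpG difference from 0.0488 to 0.072, all in 1 direction and past the threshold. The excess over flanking bins was 0.348 under a false discovery rate below 1e-06, 0.262 at ratios of at least 4 and 0.185 with 1 interaction per cluster, and the log2 difference in interactions was -0.56 at ratios of at least 4 and -0.81 with 1 per cluster. The log2 distance difference, -0.0035 as reported, was 0.283 under a false discovery rate below 1e-06, with lncRNA contacts longer on 13 of 19 autosomes (permutation test, adjusted p = 0.0252), and the cause was not tested. The log2 ratio difference was 0.00425 at ratios of at least 4 (permutation test, adjusted p = 0.8), where both sets are cut from below at the same ratio. A bin cannot be split between genes that share it, and pairs under 10 kb were not listed.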

Other observations

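Some bins that the annotation assigns to lncRNA genes lie at protein-coding starts of another annotation. Of the 7131 lncRNA promoter bins, 99 (1.39%) had a curated RefSeq mRNA start within 2500 bp. Of these 40 were listed, with 254 interactions, and the leading ones were Zswim6 with 74, Gm5544 with 28, Ptpmt1 with 19 and Tmem250-ps with 13. Ifi30 had 11, as did 1810058I24Rik. Ifi30, a lysosomal thiol reductase gene used by antigen-presenting cells, contacted the Pik3r2 promoter at 10 kb with 829 reads. Without the 99 bins, the difference in listed share from coding promoters was -19.3 percentage points, as with them.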
